A study of Mus musculus with 1073 samples.

Results

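Genes of the primitive streak and of the mesoderm that leaves it were followed in single cells of the mouse yolk sac between E7.25 and E10.5. The genes were chosen by name, with earlier results of these data known: *T* (Brachyury), *Mixl1*, *Eomes*, *Mesp1*, *Lhx1*, *Tbx6*, *Evx1* and *Fgf8*. Of these 8 genes, 6 were among the 15967 genes of the filtered tables, and *Tbx6* and *Fgf8* could be read only from the unfiltered counts. *Flk1*-GFP+ cells of the extraembryonic mesoderm were collected at E7.25 (neural plate stage) and E7.75 (early headfold stage, 140 cells) from *Flk1*-GFP/+ embryos, which carry GFP in one copy of *Flk1* (*Kdr*) on a C57BL/6 background, so sorting selected cells in which this receptor locus was active. The other 11 populations were sorted from C57BL/6 yolk sacs and held 639 cells. They were haematopoietic progenitors (HPC, labelled erythro-myeloid progenitors or EMP) at E8.25, E8.5, E9.5 and E10.5, primitive erythroid cells (EryP), megakaryocytes (Mk) and endothelium (Endo) at E8.5 and E10.5, and macrophages (Mac) at E10.5. HPC were gated as TER119-CDH5+CD41+ at E8.25 and E8.5 and as TER119-CDH5-CD45+CD41low at E9.5 and E10.5, EryP as TER119+, Mk as CD41+ and CDH5-, Mac as CD45+ and CD41-, and Endo as CDH5+ and CD41-. E7.25 and E7.75 tissue was dissociated with trypsin and later tissue with collagenase and dispase, and no population was treated.

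Gastrulating epiblast cells pass through the primitive streak and emerge as mesoderm or endoderm. *T*, *Eomes* and *Tbx6* encode T-box transcription factors, *Mixl1*, *Lhx1* and *Evx1* encode homeodomain factors, *Mesp1* encodes a basic helix-loop-helix factor of nascent mesoderm, and *Fgf8* encodes a secreted ligand required for cells to leave the streak. The posterior streak gives rise to extraembryonic mesoderm, in which *Flk1*+ cells form blood and endothelium. *Tal1*, a basic helix-loop-helix factor, and *Lmo2*, its LIM-domain partner, mark the start of that programme.

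Each value was read from 1 cell, no embryo or pool was named for a cell, and each population therefore counts as 1 sample, so no test between populations or between classes of cells was made. Shares of cells carry exact (Clopper-Pearson) 95% intervals and differences of shares carry Newcombe 95% intervals; both cover counting error only, and PCR reads are not independent molecules. A gene was called detected at 1 count or more, and levels are the authors' scran-scaled CPM. Filtered cells held 483830 to 5943204 counts. The E7.25 cells came from 2 sequencing lanes (lane 6 with 73 cells and lane 7 with 74) and the E7.75 cells from 2 others (lane 7 with 53 cells and lane 8 with 87). The cells of a lane are called a capture here, although no label names the C1 capture of a cell. Values of single captures are given where they bear on a result. Of 1073 cells captured, 926 passed the authors' filter. E7.25 cells shared a flow cell with E8.25 and E8.5 cells, and E7.75 cells shared another with E9.5 and E10.5 cells, so stage and sequencing run cannot be told apart. *Kdr*, the gene of the sorting reporter, had a count in 95.2% of the cells of E7.25 and in 72.1% of those of E7.75. Markers of other tissues that a dissected yolk sac may carry were read as well. Of 9 visceral endoderm markers a cell held 0.204 on average at the earlier stage and 0.179 at the later, with *Ttr* in 1 cell of each stage and *Apoa1*, the most frequent, in 9.52% and 10.0%. Of 6 node and endoderm genes, *Noto* and *Foxj1* were at 0 in both stages. *Sox17* was found in 3.40% and 5.71% of cells, *Gsc* in 4.08% and 2.14%, *Foxa2* in 1.36% and 0%, and *Chrd* in 0.680% and 0%. Of 8 extraembryonic ectoderm markers, *Elf5* was at 0 in both stages and *Gata3* was found in 69.4% and 48.6% of cells, *Ascl2* in 8.84% and 19.3%, *Rhox5* in 8.84% and 14.3% and *Wnt6* in 8.84% and 8.57%, with 1.09 and 0.921 of the markers per cell on average. The part of such cells in the results was not tested. *Xist* together with Y-linked genes, which a doublet of a female and a male cell would give, was seen in 33 E7.25 cells and in 17 E7.75 cells, and these cells were kept.

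All 6 genes of the filtered table were found in more of the E7.25 cells than of the E7.75 cells. *T*, which is required for posterior mesoderm, was detected in 62 of 73 and 52 of 74 cells of the E7.25 captures (77.6% in all, 69.9 to 84.0) and in 39 of 140 cells of E7.75 (27.9%, 20.6 to 36.1). The CPM of *T* in E7.25 cells ranged from 0 through a median of 22.2 to 744, with a mean of 66.6 ± 103.7 (SD over cells), against a median of 0, a highest value of 174 and a mean of 9.404 ± 25.5 among E7.75 cells. *Eomes*, required for definitive endoderm and for mesoderm to leave the streak, was detected in 65 and 50 cells of the E7.25 captures (78.2% in all, 70.7 to 84.6) and in 14 E7.75 cells (10.0%, 5.58 to 16.2). Its CPM at E7.25 had a median of 25.4 and a highest value of 1057, with a mean of 105.6 ± 177. At E7.75 the highest cell held 59.2 CPM, and the mean was 2.04 ± 8.92. Thus *Eomes* and *T* were found in like shares of E7.25 cells, whereas *T* was found in more E7.75 cells than *Eomes* and their intervals did not overlap.

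Of the homeodomain genes, *Mixl1* had the widest range. It was detected in 67 and 48 cells of the E7.25 captures (78.2% in all, 70.7 to 84.6), with a median of 37.1 CPM, a highest value of 5335 and a mean of 270.2 ± 663, and in 45 E7.75 cells (32.1%, 24.5 to 40.6), with a highest value of 849 and a mean of 37.4 ± 120.8. *Lhx1*, a LIM-homeodomain factor, was detected in 95 E7.25 cells (64.6%, 56.3 to 72.3; mean 65.0 ± 192 CPM, highest 1671) and in 49 E7.75 cells (35.0%, 27.1 to 43.5; mean 9.90 ± 31.4, highest 239.7), which made it the gene found in most cells of the later stage, although its interval overlapped those of *Mixl1* and *T*. Its lowest level among the E7.75 cells that held it was 0.234 CPM. *Evx1*, expressed in the posterior streak, was detected in 71 E7.25 cells (48.3%, 40.0 to 56.7; mean 9.34 ± 22.7 CPM, highest 231) and in 31 E7.75 cells (22.1%, 15.6 to 29.9; mean 5.30 ± 19.4, highest 178). *Evx1* thus differed least between the stages in level: the cells that held it had a median of 12.3 CPM among E7.25 cells and of 13.0 among E7.75 cells. *Mesp1*, of which most cells held few reads, was detected in 57 and 50 cells of the E7.25 captures (72.8% in all, 64.8 to 79.8; median 5.64 CPM, highest 130.2) and in 13 E7.75 cells (9.29%, 5.04 to 15.4; highest 31.5), and its mean was 15.0 ± 23.3 against 0.849 ± 3.76 CPM.

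**Figure D1:**
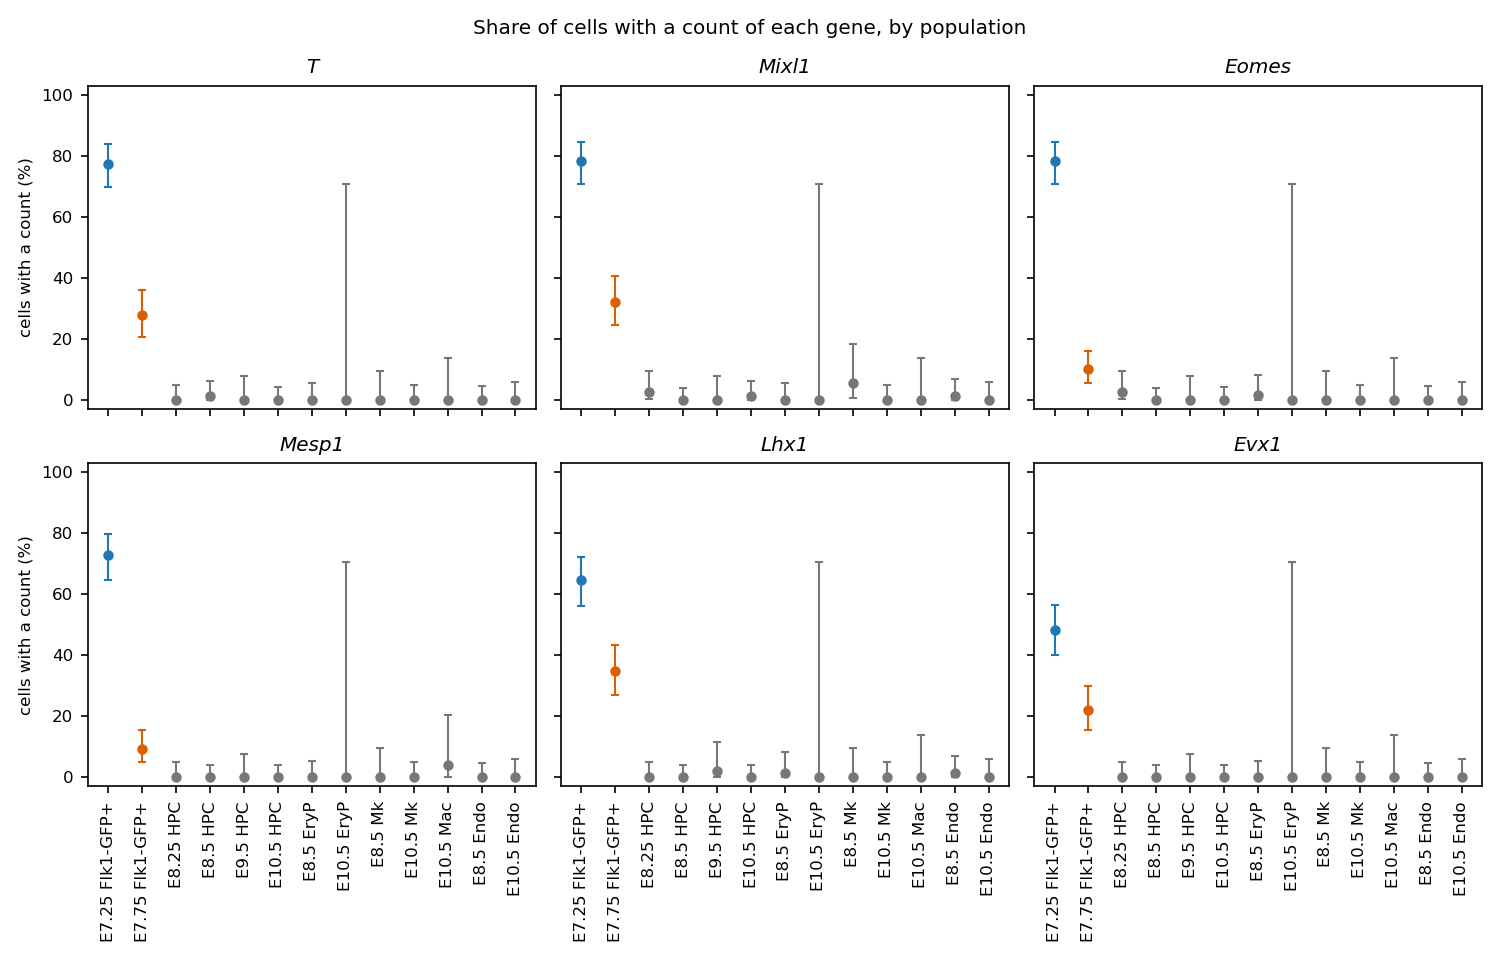
Percentage of cells in which each of the 6 genes had a count (y axis) in each of the 13 populations (x axis); points are shares and bars exact 95% intervals. All 6 genes stand highest at E7.25, from 48.3% for Evx1 to 78.2% for Mixl1 and Eomes, and lower at E7.75, and at or near 0 in all later populations; the wide bar of E10.5 EryP rests on 3 cells.

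Levels of different genes were compared per kilobase of annotated exon. At E7.25 the mean CPM per kb was 117.8 for *Mixl1*, 28.8 for *T*, 25.4 for *Eomes*, 16.0 for *Lhx1*, 11.7 for *Mesp1* and 3.25 for *Evx1*. The order of these levels was the same in both E7.25 captures, although the values of *T* and *Eomes* in lane 6 were as near as 36.8 and 35.3 CPM per kb. At E7.75 *Mixl1* was again highest, at 16.3 CPM per kb, followed by *T* (4.06), *Lhx1* (2.43), *Evx1* (1.84), *Mesp1* (0.666) and *Eomes* (0.491). This order differed between the E7.75 captures, with *Evx1* next after *Mixl1* in lane 7 (2.29 CPM per kb) but below *T* and *Lhx1* in lane 8 (1.57). In every case the SD over cells exceeded the mean, and the ranges of all 6 genes overlapped.

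Mean CPM + 1 was lower by 2-fold or more at E7.75 for 5 of the 6 genes, against 6.62% of the 13967 genes whose mean reached 1 CPM at either stage. The log2 ratios of E7.75 over E7.25 were -5.13 for *Eomes*, -3.11 for *Mesp1*, -2.82 for *Mixl1*, -2.70 for *T*, -2.60 for *Lhx1* and -0.71 for *Evx1*, with a median of -2.76 against 0.06 over all genes. *Eomes* ranked 2 from the lowest of the 13967 genes and *Mesp1* ranked 9. A gene could enter this set through either stage alone, as *Mesp1* did through E7.25 (15.0 against 0.849 CPM), which favours a large ratio. The 6 genes were chosen with earlier results of these data known, so the share over all genes is a description and not a test of them. The same 5 genes also met the stricter rule that both E7.75 captures lie below both E7.25 captures, which 5.92% of genes met. In captures, mean CPM of *Eomes* was 146.7 and 65.1 at the earlier stage against 1.15 and 2.58 at the later, and that of *Mesp1* 16.8 and 13.1 against 0.0220 and 1.35. *T* stood at 85.2 and 48.2 against 3.63 and 12.9 CPM, *Mixl1* at 357 and 185 against 9.89 and 54.2, and *Lhx1* at 81.1 and 49.1 against 3.66 and 13.7. *Evx1* was the exception: its means were 12.4 and 6.33 CPM in the E7.25 captures and 6.60 and 4.51 in those of E7.75, so that a capture of the later stage lay above a capture of the earlier one.

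**Figure D2:**
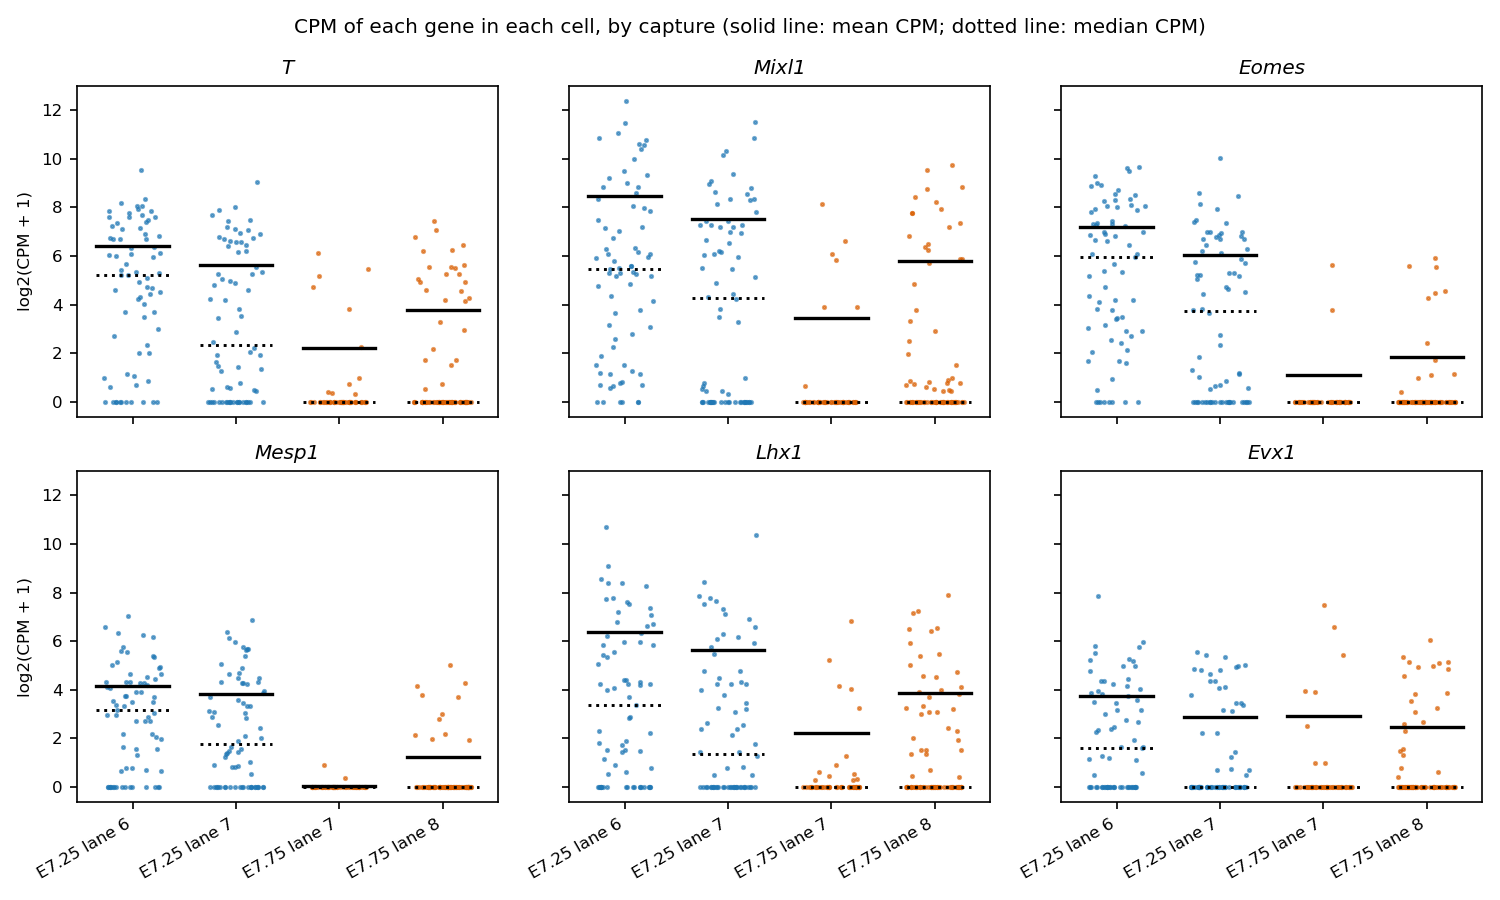
CPM of each gene in each cell, drawn as log2(CPM + 1) on the y axis, for the 2 captures of E7.25 (blue) and the 2 of E7.75 (orange) on the x axis; each point is a cell, solid lines are mean CPM and dotted lines median CPM. The median is 0 in both E7.75 captures for all 6 genes, and Evx1 is the gene whose means lie closest, between 4.51 and 12.4 CPM.

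The captures of a stage differed as well. At E7.25 all 6 genes were detected in a larger share of the lane 6 cells, from 78.1% against 67.6% for *Mesp1* to 91.8% against 64.9% for *Mixl1*, and all 6 means were higher there; the median gene had a log2 ratio of 0.03 between these captures. At E7.75 all 6 genes were detected in a larger share of the lane 8 cells, by between 8.87 points for *Mesp1* and 30.5 for *Mixl1*. In lanes 7 and 8 of E7.75 the shares were 20.8% and 32.2% for *T*, 13.2% and 43.7% for *Mixl1*, 3.77% and 13.8% for *Eomes*, 3.77% and 12.6% for *Mesp1*, 24.5% and 41.4% for *Lhx1* and 15.1% and 26.4% for *Evx1*. In lanes 6 and 7 of E7.25, *Lhx1* was in 72.6% and 56.8% of cells and *Evx1* in 58.9% and 37.8%. For *Eomes* and *Mesp1* the 3.77% of E7.75 lane 7 stands for 2 cells. Median depth went the other way at both stages (1750260 and 1942300 counts in lanes 6 and 7 of E7.25, 2759530 and 1620920 in lanes 7 and 8 of E7.75), while the median number of genes detected was higher in the captures with more of the members (9085 against 8547.5, and 8875 against 8611). The part of these differences in the results was not tested beyond the values given for each capture.

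Upstream sequences are shown for *T* and *Eomes*, T-box genes whose means were lower at E7.75, and for *Evx1*, whose mean differed least. RefSeq held promoter windows for 6 of the 8 genes (*T*, *Eomes*, *Mesp1*, *Lhx1*, *Tbx6* and *Evx1*). The 250 bases before the RefSeq start site, on the strand of the gene and in GRCm38.p6, lie at chr17:8434173-8434422 (plus strand) for *T*, at chr9:118477939-118478188 (plus strand) for *Eomes* and at chr6:52313248-52313497 (plus strand) for *Evx1*, and in all 3 cases they end before the first base that GENCODE M21 gives the gene. The genes themselves span chr17:8434423-8442496 (*T*), chr9:118478212-118486132 (*Eomes*) and chr6:52313498-52318378 (*Evx1*), and *Eomes* shares exon bases with *Gm33460* on the opposite strand, from which its reads cannot be told apart. Capitals mark matches, on either strand, to the T-box half-site AGGTGTGA, its core GGTGTG (which lies within it), the FOXH1 motif AATCCACA, the TCF/LEF motif CTTTGAT, the TATA box TATAAA and the CCAAT box CCAAT.
T: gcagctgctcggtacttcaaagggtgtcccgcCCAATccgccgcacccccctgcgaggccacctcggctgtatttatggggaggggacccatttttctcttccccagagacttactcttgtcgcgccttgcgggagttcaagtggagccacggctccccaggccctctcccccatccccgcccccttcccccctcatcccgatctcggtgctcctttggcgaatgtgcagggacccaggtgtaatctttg
Eomes: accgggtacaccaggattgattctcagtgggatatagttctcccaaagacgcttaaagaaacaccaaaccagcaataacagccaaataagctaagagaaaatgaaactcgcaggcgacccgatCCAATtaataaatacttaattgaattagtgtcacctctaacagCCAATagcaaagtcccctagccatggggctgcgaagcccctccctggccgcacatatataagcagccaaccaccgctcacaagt
Evx1: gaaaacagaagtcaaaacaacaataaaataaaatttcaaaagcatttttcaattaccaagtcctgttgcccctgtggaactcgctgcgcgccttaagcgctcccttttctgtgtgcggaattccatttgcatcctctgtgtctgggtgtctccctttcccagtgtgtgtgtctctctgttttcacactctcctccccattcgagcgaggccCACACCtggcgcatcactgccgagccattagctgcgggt
The window of *Eomes* held the CCAAT box in 2 places and that of *T* in 1, a motif present in 33.8% of 32807 windows of the same length. *Evx1* held the T-box core on the minus strand 34 to 39 bases before the start, as did 16.3% of windows. The full T-box half-site (1.12% of windows), the FOXH1 motif (0.719%), the TCF/LEF motif (3.21%) and the TATA box (12.4%) were not found as these letters in the 3 windows shown; outside them, the TCF/LEF letters stood in the *Mesp1* window and the TATA box in that of *Tbx6*. A match is a description of the letters and not a binding site.

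From E8.25 on the genes were rarely detected. Any of the 6 was detected in 14 of 639 cells (2.19%, 1.20 to 3.65), and no later cell held 2 of them. *Mixl1* was found in 6 of these cells, namely 2 E8.25 HPC, 2 E8.5 Mk, 1 E10.5 HPC and 1 E8.5 Endo, and its highest levels were 60.1 and 45.4 CPM, in the E8.5 Mk. *Eomes* was found in 2 E8.25 HPC, with 57 and 7 counts, and in 1 E8.5 EryP with 1 count. *Lhx1* was found in 3 cells with 1 to 6 counts, *T* in 1 E8.5 HPC with 12 counts and *Mesp1* in 1 Mac with 1 count. For *Evx1* the count was 0 of 639 cells, which allows up to 0.469%. E10.5 Mk (73 cells), E10.5 Endo (61 cells) and E10.5 EryP (3 cells) held none of the 6 genes. In the same later cells *Tal1* was detected in 89.7% and *Lmo2* in 94.1%. By population the highest shares were 5.41% for *Mixl1* in E8.5 Mk (2 of 37 cells, 0.661 to 18.2) and 4.00% for *Mesp1* in Mac (1 of 25 cells, 0.101 to 20.4). In lane 7 of E7.75 *Mesp1* and *Eomes* were each at 3.77% (0.460 to 13.0), which overlapped the intervals of *Mesp1* in Mac and of *Eomes* in E8.25 HPC (2.74%, 0.334 to 9.55).

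*Tbx6*, a T-box gene of paraxial and presomitic mesoderm, and *Fgf8* were below the gene filter of the authors. In the unfiltered counts *Tbx6* was detected in 35 E7.25 cells (23.8%, 17.2 to 31.5) with 581 counts in all and in 6 E7.75 cells (4.29%, 1.59 to 9.09) with 244 counts. It was also found in 7 of the 639 later cells, of which 4 were E8.5 EryP. *Fgf8* was detected in 11 E7.25 cells (7.48%, 3.79 to 13.0) with 60 counts and in 4 E7.75 cells (2.86%, 0.784 to 7.15) with 52, and in 0 of 639 later cells, which allows up to 0.469%. Both shares were lower at E7.75, but for *Fgf8* the intervals overlapped.

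At E7.25 most cells held several of the genes at once. No E7.25 cell lacked all 6, 8 cells held 1 and 35 held all 6, with a mean of 4.20 genes per cell. 3 or more were found in 84.4% of cells (77.5 to 89.8), in 95.9% of the lane 6 cells and 73.0% of the lane 7 cells. At E7.75, 39 cells held none, 54 held 1 and no cell held all 6, with a mean of 1.36. 3 or more were found in 24 of 140 cells (17.1%, 11.3 to 24.4), and 22 of these 24 were in the lane 8 capture (25.3% of its cells, against 3.77% in lane 7). Among the 54 E7.75 cells with exactly 1 of the genes, it was *Lhx1* in 19, *Mixl1* in 14, *Evx1* in 10 and *T* in 8, but *Eomes* in 2 and *Mesp1* in 1. Some of these calls rest on few reads: E7.75 cells that held *Lhx1* had a median of 0.890 CPM in lane 7 and 10.6 in lane 8, and those that held *T* 3.84 and 29.4. The full set of 6 was the most frequent of 41 combinations at E7.25, and none of the 6 was the most frequent of 32 at E7.75. E7.25 cells with all 6 held a median of 9236 detected genes of any kind, cells with 2 held 7718 and cells with 1 held 8741.5, and cells with none at E7.75 held 8451 against 9217 for cells with 3; the part of this difference in the number of members per cell was not tested.

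**Figure D3:**
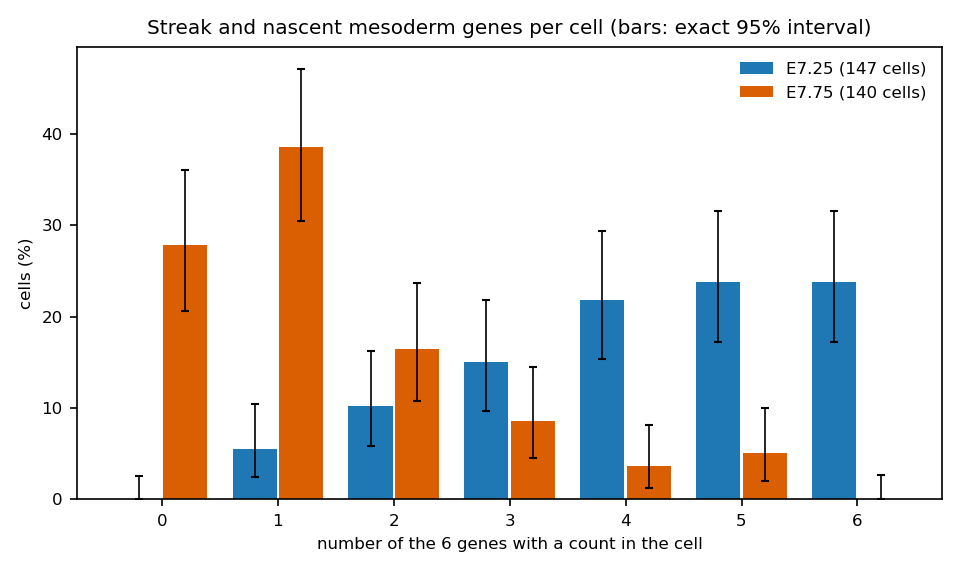
Share of cells (y axis, percent) by the number of the 6 genes with a count (x axis), for E7.25 (blue) and E7.75 (orange, 140 cells); bars carry exact 95% intervals. E7.25 cells pile up at 5 and 6 genes (35 cells each) and E7.75 cells at 0 and 1 (39 and 54 cells).

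Co-detection was compared with the product of the 2 shares, the value that independent detection would give. At E7.25, 12 of 15 pairs lay above it, with ratios between 0.988 and 1.18. The phi coefficient, a correlation of detected against not detected over all cells of the stage, was 0.42 for *Eomes* with *Mesp1*, 0.38 for *Mesp1* with *Lhx1* and 0.29 for *Mesp1* with *Evx1*. *Mesp1* was found in 82.6% of the cells with *Eomes* and in 37.5% of the 32 cells without it. In contrast, *T* was detected as often with as without the other genes, apart from *Eomes*: phi was -0.01 with *Mixl1*, -0.04 with *Mesp1*, 0.01 with *Lhx1* and -0.0020 with *Evx1*, and 0.15 with *Eomes*. In captures, *T* with *Eomes* had a phi of -0.03 in lane 6 and 0.18 in lane 7, so this exception was not seen in both. In lane 6 the 11 cells without *T* all held *Mesp1* (phi -0.22), but in lane 7 the phi of *T* with *Mesp1* was 0.05. The *Eomes* and *Mesp1* pair had a phi of 0.13 in lane 6, where 8 cells lacked *Eomes* and 16 lacked *Mesp1*, and 0.57 in lane 7, and the *Mesp1* and *Lhx1* pair 0.34 and 0.39. These values share the depth of each cell and are descriptions.

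At E7.75, 13 of 15 pairs lay above the product of their shares. *T* was found with *Mesp1* (phi 0.41, in 7.86% of cells where the product of the shares was 2.59%), with *Mixl1* (phi 0.29, 21 cells) and with *Evx1* (phi 0.28, 16 cells), pairs whose phi was near 0 at E7.25, while *Mesp1* with *Evx1* was at 0.30 (8 cells), close to its value at E7.25. Of the 13 cells with *Mesp1*, 11 held *T* and 8 held *Evx1*. *Eomes* and *Mesp1*, the pair with the highest phi at E7.25, were together in 0 of 140 cells, which allows up to 2.14%; the product of their shares was 0.929%, so a lack of overlap was not detectable with this number of cells. The E7.75 values rest on the lane 8 capture: 13 of 15 pairs lay above the product there and 7 of 15 in lane 7, where *T* with *Mesp1* was seen in 1 cell.

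**Figure D4:**
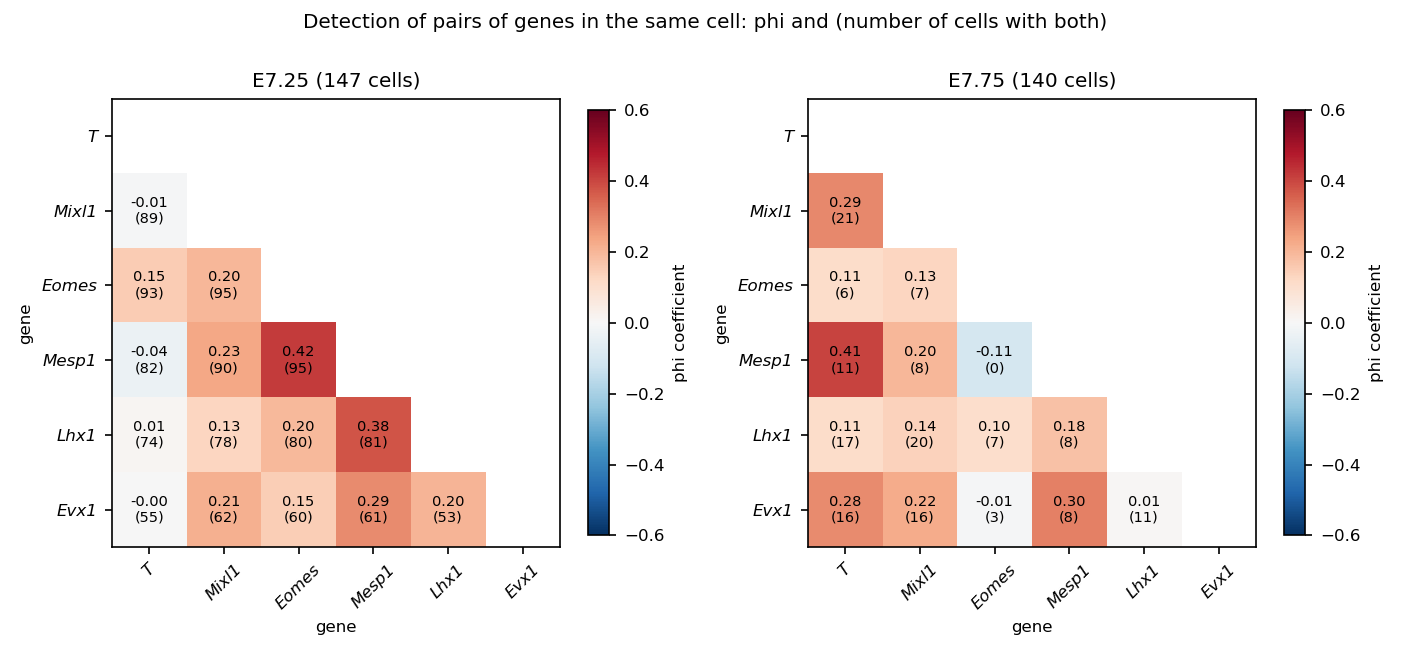
Phi coefficient of each pair of genes over cells (colour, and number in each square, with the number of cells holding both in parentheses) at E7.25 (left) and E7.75 (right); both axes name genes. The T column is near 0 at E7.25, except for Eomes at 0.15, and the strongest squares are Eomes with Mesp1 (0.42) at E7.25 and T with Mesp1 (0.41) at E7.75.

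*Tal1* was detected in 86 E7.25 cells (58.5%, 50.1 to 66.6) and *Lmo2* in 95 (64.6%, 56.3 to 72.3). Each of these cells held at least 1 of the streak genes. 3 or more of the 6 were found in 81.4% of cells with *Tal1* and 88.5% of cells without (difference -7.13 points, -18.3 to 5.28; -6.12 in lane 6 and -16.2 in lane 7), and in 84.2% of cells with *Lmo2* and 84.6% without (-0.405 points, -11.8 to 13.1). By *Lmo2* both captures lay lower than this pooled value, at -5.45 points in lane 6 and -6.47 in lane 7, and all of these intervals held 0. Median genes detected were 8793 with and 8731 without *Tal1*.

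The individual genes did not share 1 pattern at E7.25. *T* was found in 86.0% of the 86 cells with *Tal1* and in 65.6% of the 61 without (20.5 points, 6.59 to 34.3), and in 85.3% of the 95 cells with *Lmo2* and 63.5% of the 52 without (21.8 points, 7.31 to 36.6). The level differed more than the share for *Lmo2*: mean *T* was 94.7 CPM with *Lmo2* (median 60.8, highest 744) and 15.1 without (median 1.15, highest 163), and 106.7 against 19.4 in lane 6 and 78.2 against 12.8 in lane 7. By *Tal1* the difference in the share of *T* was 33.4 points in lane 6 and 5.41 in lane 7. *Mesp1* went the other way, with 65.1% of cells with *Tal1* and 83.6% of cells without (-18.5 points, -31.3 to -3.96), and -20.2 and -21.6 points in the captures. By *Lmo2* the difference for *Mesp1* was -12.3 points (-25.4 to 2.89; -21.7 in lane 6 and -11.0 in lane 7), which its interval does not separate from 0. *Mixl1*, *Eomes*, *Lhx1* and *Evx1* differed by between -10.0 and 5.00 points with either factor, and all of these intervals held 0, although *Lhx1* by *Tal1* was at -3.57 points in lane 6 and -21.6 in lane 7.

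Among the 4 classes that *Tal1* and *Lmo2* make together, the 67 cells with both had *T* in 88.1% (77.8 to 94.7) and *Mesp1* in 59.7% (47.0 to 71.5). The 33 cells with neither had *T* in 54.5% (36.4 to 71.9) and *Mesp1* in 78.8% (61.1 to 91.0). Cells with *Lmo2* alone (28) or *Tal1* alone (19) held *T* in 78.6% and 78.9% and *Mesp1* in 89.3% and 84.2%, so that *Mesp1* was lowest where both factors were found, but the intervals of these smaller classes overlapped most others. The mean level of *T* was 110.8 CPM with both factors, 56.4 with *Lmo2* alone, 8.40 with *Tal1* alone and 19.0 with neither. Of the 67 cells with both, 43 came from lane 6, and of the 33 with neither, 21 came from lane 7. In lanes 6 and 7 *T* was in 95.3% and 75.0% of cells with both and in 58.3% and 52.4% with neither. Its highest share was with *Tal1* alone in lane 6 (100% of 6 cells) and with *Lmo2* alone in lane 7 (87.5% of 16). *Mesp1* was lowest with both factors in each capture, at 67.4% and 45.8%.

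As a background, a share lower by 10 points or more in both captures was seen by *Tal1* for 3.29% of the 12924 genes detected in 10% of E7.25 cells or more, and for 1 of the 6 members, *Mesp1*. It was higher for 3.08% of genes and for no member. By *Lmo2*, 3.16% of genes were lower, among them *Mesp1* and *Evx1*, and 2.91% were higher, among them *T*. The limit of 10 points was chosen after values had been seen.

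**Figure D5:**
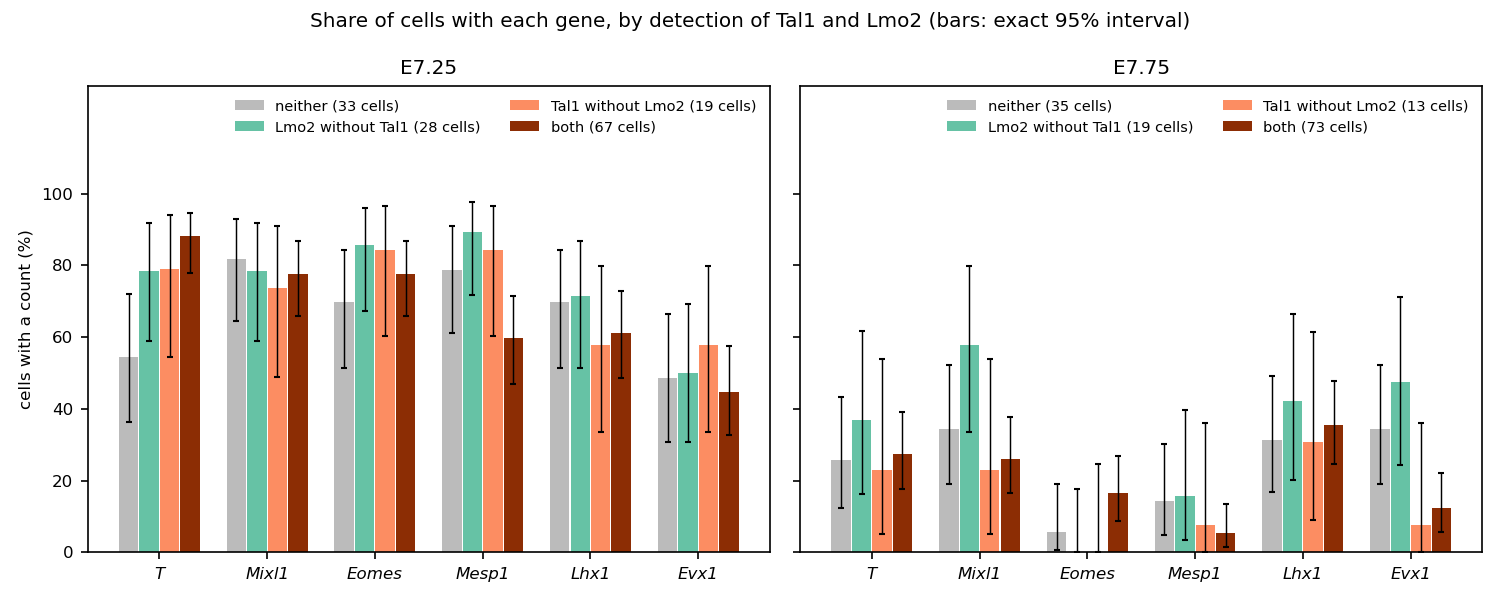
Share of cells with each gene (y axis, percent) in cells with neither Tal1 nor Lmo2, with either alone and with both, at E7.25 (left) and E7.75 (right); bars carry exact 95% intervals and the legend gives the number of cells. At E7.25 T runs from 54.5% with neither to 88.1% with both while Mesp1 is lowest, at 59.7%, with both; at E7.75 Evx1 is at 34.3% with neither and 12.3% with both.

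At E7.75, *Tal1* was detected in 86 of 140 cells (61.4%, 52.8 to 69.5) and *Lmo2* in 92 (65.7%, 57.2 to 73.5). The share of *T* was 26.7% with *Tal1* and 29.6% without (-2.89 points, -18.4 to 11.7), at 14.6 points in lane 7 and -11.4 in lane 8. *Evx1* was found in 11.6% of the 86 cells with *Tal1* and in 38.9% of the 54 without (-27.3 points, -41.6 to -12.7), and was lower by 19.2 points in lane 7 and 30.7 in lane 8. *Mixl1* was found in 25.6% with and 42.6% without *Tal1* (-17.0 points, -32.5 to -1.11), at mean levels of 14.1 and 74.7 CPM. The difference in level was seen in lane 8 (16.1 against 108.2 CPM, -20.3 points in share) and had the other direction in lane 7 (11.1 against 7.53 CPM, -5.24 points). *Eomes* had a difference of the other sign, at 14.0% of cells with *Tal1* and 3.70% of cells without (10.2 points, -0.309 to 19.5). It was 5.71 points in lane 7 and 14.1 in lane 8, and the interval of the pooled difference held 0. Of the 14 cells with *Eomes*, 12 had both *Tal1* and *Lmo2*, as did 52.1% of all E7.75 cells. The share of cells with 3 or more of the genes was 12.8% with *Tal1* and 24.1% without (-11.3 points, -25.3 to 1.53), and it was -18.5 points in lane 8 and 5.71 in lane 7. By *Lmo2* this share was 17.4% with and 16.7% without (0.725 points, -13.7 to 12.8), but at -1.32 points in lane 7 and -2.33 in lane 8.

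In the same terms as at E7.25, 5.36% of the 12995 genes tested at E7.75 were lower by *Tal1* in both captures and 6.55% higher, with *Evx1* alone of the 5 members tested among the lower. By *Lmo2*, 3.78% of genes were lower and 8.31% higher, and no member was among them. *Mesp1* was under the limit of 10% of cells at this stage.

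The opposite patterns of *T* and *Mesp1* at E7.25 were described further with the haemato-endothelial genes, a comparison chosen after the values above had been seen. 32 cells held *T* without *Mesp1*, 82 held both, 25 held *Mesp1* without *T* and 8 held neither. *Tal1* and *Lmo2* were found together in 71.9% of cells with *T* alone (53.3 to 86.3), 43.9% of cells with both and 16.0% of cells with *Mesp1* alone (4.54 to 36.1). *T* and *Mesp1* had been singled out by *Tal1* and *Lmo2* in these same cells, so these shares restate that choice. The shares of other haemato-endothelial genes given next are no independent support for it. *Tek*, an endothelial receptor, was found in 71.9%, 29.3% and 12.0%, *Cdh5* (VE-cadherin) in 56.2%, 19.5% and 8.00%, and *Gata2* in 96.9%, 80.5% and 52.0%. *Pdgfra*, a receptor of mesoderm and mesenchyme, ran the other way, at 56.2%, 86.6% and 84.0%, as did *Snai1*, a repressor active in cells leaving the epithelium, at 50.0%, 80.5% and 84.0%. In lanes 6 and 7 *Tek* was found in 68.8% and 75.0% of cells with *T* alone and in 18.2% and 7.14% of cells with *Mesp1* alone. *Kdr*, selected by the sort, was found in 100%, 96.3% and 92.0%. Among the 17 listed haemato-endothelial genes, the falling order of shares was not seen for *Etv2*, an early haemato-endothelial factor, at 68.8%, 75.6% and 52.0%. Nor was it seen for *Klf1* at 3.12%, 6.10% and 4.00%, or *Sox18* at 3.12%, 3.66% and 4.00%. The other listed genes, *Tal1* and *Lmo2* among them, had that order, for which no share over all genes was taken. The 8 cells with neither *T* nor *Mesp1*, all from lane 7, had *Tal1* and *Lmo2* together in 50.0%, *Gata2* in 100%, *Tek* in 50.0% and *Cdh5* in none.

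Signals and other genes of the streak gave a mixed picture between the stages. Of 16 streak signals, 9 were in the filtered table, and 3 of these were lower by 2-fold or more at E7.75 and none higher. *Tdgf1* (Cripto), the Nodal co-receptor, went from 86.4% of cells and a mean of 238 CPM to 3.57% and 0.993 CPM, *Wnt3* from 58.5% to 14.3% of cells, and *Lefty2*, a Nodal antagonist, from 19.7% to 0 of 140 cells, which allows up to 2.14%. *Bmp4* (89.8% and 92.1%), *Fgf3* (96.6% and 94.3%) and the Nodal effector *Foxh1* (99.3% at both) were found in like shares. Among 11 filtered genes of nascent mesoderm outside the 8, *Dll1* and *Gata4* were lower by 2-fold or more and *Cdx4* higher, and the median log2 ratio was 0.00. Of 4 epiblast genes, *Pou5f1* (47.6% and 12.9%) and *Epcam* (55.8% and 20.7%) were lower by 2-fold or more. Of 16 haemato-endothelial genes over 1 CPM, 1 (*Kdr*) was lower and 5 were higher, among them *Klf1* (log2 ratio 3.45) and *Itga2b* (2.62), and of 11 mesenchymal genes 7 were higher, led by *Acta2* (3.19). Over all 13967 genes, 6.85% were higher by 2-fold or more.

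By Spearman correlation over E7.25 cells with the mean log2(CPM + 1) of the 6 genes, the nearest of 11456 genes were *Tdgf1* (rho 0.73, and 0.76 and 0.66 in the captures), *Tdgf1-ps1* (0.69), *Emb* (0.57), *Evx1os* (0.53) and *Hmga2* (0.52). *Tdgf1-ps1* is a pseudogene of *Tdgf1* that can take its reads, and *Evx1os* is antisense to *Evx1* with 73 shared exon bases, so these 2 are uncertain. The lowest were *Igf2* (-0.49), *H19* (-0.47), *Crip2* (-0.45), *Vim* (-0.45) and *Slc2a3* (-0.44), each of the same sign in both captures. Gene by gene, *Tdgf1* was among the 3 nearest of *Eomes* (0.75), *Mesp1* (0.56), *Mixl1* (0.53) and *Lhx1* (0.48). *Tdgf1* was not among the 3 nearest of *T*, which were *Rspo3* (0.44), *Nrp2* (0.44) and *Rasgrp2* (0.44), or of *Evx1*, which were *Lef1* (0.43), *Nefm* (0.43) and *Gm37720* (0.40). The 6-gene mean itself correlated at 0.26 with the number of genes detected and at -0.21 with total counts, over cells that differ in depth.

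At E7.75 the nearest genes over 140 cells were *Msx1* (0.49), *Phlda2* (0.48), *Ifitm1* (0.47), *Cdx4* (0.47) and *Spin2c* (0.46), and the lowest were *Gm13776* (-0.39), *Epb42* (-0.35), *Ube2l6* (-0.34), *Galk1* (-0.32) and *Gm9403* (-0.32). In lanes 7 and 8 *Ifitm1* stood at 0.14 and 0.57 and *Cdx4* at 0.21 and 0.55. *Cdx4*, a posterior homeobox gene, was found in 79.2% of the 24 cells with 3 or more members and in 12.8% of the 39 with none, at means of 174 and 6.80 CPM. It had been picked by its correlation with the members in these same cells, so this difference restates that choice. The 24 cells also held *Snai1* in 75.0% against 25.6%, *Axin2*, a target of Wnt signalling, in 87.5% against 33.3%, and *Pou5f1* in 33.3% against 5.13%. *Tdgf1* was found in 8.33% of them and *Lefty2* in 0 of 24, which allows up to 12.5%. *Klf1*, an erythroid factor, was found in 12.5% of the 24 and 48.7% of the 39, and *Tek* in 45.8% and 82.1%. Only 9 of the 17 listed haemato-endothelial genes were compared in this way, and no share over all genes was taken. Of these 9, 7 were found in a smaller share of the 24 cells, whereas *Lmo2* was in 66.7% of both and *Etv2* in 83.3% against 61.5%. Of 17 haemato-endothelial genes the 24 cells held 8.5 on average and the 39 held 10.3, and of 11 mesenchymal genes 7.67 and 6.13. Cells with 1 and with 2 members held 9.19 and 10.7 haemato-endothelial genes and 8.30 and 7.78 mesenchymal genes. Neither list therefore ran steadily with the number of members. Visceral endoderm markers were as rare in the 24 cells as in the 39 (0.0833 and 0.128 of 2 genes). Of the 24 cells, 22 came from the lane 8 capture, whereas 20 of the 39 came from lane 7, so the 2 sets also differed in capture.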

How the data were processed

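Yolk sac cells of 13 sorted populations were captured on the Fluidigm C1 system and read as Nextera XT libraries, paired ends of 100 bases. The deposited read counts were made by the authors with Rsubread (Ensembl release 84, GRCm38) and featureCounts; the deposited signal values are CPM that the authors scaled with scran after a scater filter, which kept 926 of 1073 cells and 15967 genes. Read counts are not molecules, and strand was not used here. Groups came from sample titles; every column was mapped. Shares used counts of 1 or more, ratios used log2 of mean CPM + 1 for genes whose mean reached 1 CPM at either stage, and 3 cells of the total gave the limit for a count of 0. Doublets were not removed. *Tbx6*, *Fgf8* and other genes outside the filter were read by Ensembl ID from the unfiltered counts. The exon lengths came from GENCODE M21 and promoters from RefSeq. Members and lists were chosen with earlier results of these data known. Named genes were the members, *Tal1*, *Lmo2*, genes of the lists, the 5 highest and 5 lowest by Spearman correlation with the members' mean among genes detected in 20% of a stage's cells, and the 3 nearest of each member at E7.25. The code was tested on simulated data. Scripts ran in Python 3.11.15 with scipy 1.17.1, pandas 2.3.3, numpy 2.4.6 and, for figures, matplotlib 3.10.9.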

Additional observations from a re-analysis of the deposited data

Results flagged for a closer look

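*Lhx1* by *Lmo2* drew attention because its difference in the share of cells had one sign in both E7.25 captures and the other sign in both E7.75 captures. With *Lmo2*, *Lhx1* was lower by 1.17 points at E7.25 (-1.17 points, with -6.87 in lane 6 and -3.82 in lane 7) and higher by 5.71 points at E7.75 (3.08 in lane 7 and 4.16 in lane 8). The difference between the stages was not tested, and the intervals of all these differences held 0.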

How the results depend on the processing

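The count of 5 members lower at E7.75 stayed within a factor of 1.5 under every alternative: own-total CPM, pseudocounts of 0.1 and 10, no filter or a mean of 10 CPM, thinning to 500000 counts, leaving out 293 cells with transcripts of both sexes, all captured cells (6 members) and each capture left out in turn (5 or 6). The share of cells with 3 or more members became 60.5% among E7.25 cells and 10.0% among E7.75 cells when 10 counts were required, and 76.2% at E7.25 after thinning. For 2 or more members the shares were 94.6% and 33.6%, and for 4 or more 69.4% and 8.57%. Without lane 6 the E7.25 share was 73.0% and without lane 7 95.9%; without lane 7 the E7.75 share was 25.3% and without lane 8 3.77%. Without lane 8, 7 of 15 pairs lay above the product of their shares, and the difference by *Tal1* at E7.75 was 5.71 points. At 10 counts the difference by *Lmo2* at E7.25 was -14.7 points, and any member was found in 1.10% of later cells. The difference by *Tal1* at E7.25, whose interval held 0, was 2.98 points after thinning. The cause of these shifts was not tested, apart from the stricter limits, which count fewer cells by construction. Of 193 values of single members, 150 stayed within the limits and 43 moved without reversing, 29 of them towards 0. No paired analysis was possible because cells of different populations share no replicate. Values for E10.5 EryP rest on 3 cells, and detection depends on depth, so a gene at 0 may be present below it.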
